A study of Mus musculus with 6 samples.

Results

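Fetal liver cells and hepatocytes secrete the products of 10 genes examined here into the blood: Afp, Alb, Ttr, Rbp4, Apoe, Apoa1, Apoa2, Apob, Trf and Serpina1a. They were taken by symbol from the 23282 entries of each count file. Of the 10, 7 passed the filter on low counts and are among the 12088 genes tested. Apoa1, Apoa2 and Apob had too few reads and are given as reads per library.

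The libraries carry the cell line label BMOL, a mouse liver progenitor line, and come in 2 groups of 3. The first was labelled vector control. The second was labelled as treated with constructs that express TXNIP, the thioredoxin-interacting protein, an alpha-arrestin that binds thioredoxin and limits glucose uptake. This second group is called the TXNIP libraries here, after its label only. No other allele, agent or time is named. Whether the members of a group were separate cultures, or a group a single clone, is not in the labels, so p-values measure the spread between these samples, which may be technical. Libraries were made from the 3' end of polyadenylated RNA with the QuantSeq kit and read in single-end runs of 75, per the labels' protocols and the series' design text.

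The hepatocyte secretes most of the protein of blood plasma. In the fetus the yolk sac and the liver make alpha-fetoprotein, whose gene Afp lies beside that of albumin, and around birth Afp is shut down while Alb stays high. Liver progenitors express some of these genes weakly before they mature. Secreted liver genes depend on a small set of transcription factors, among them HNF4, FOXA and C/EBP proteins, which bind close to their start sites. Macrophages, by contrast, make little of this plasma protein set but are a main source of apolipoprotein E outside the liver.

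The libraries held 8725624 to 15119775 counts. Txnip, at chromosome 3 from 96557957 to 96561857, had control levels of 38.3, 9.63 and 10.8 CPM (reads per 1000000 reads of the scaled library) and levels of 217, 299 and 290 CPM with the TXNIP label. Its log2 fold change was 3.82 ± 0.46 (SE; adjusted p = 2.8e-05 in edgeR's quasi-likelihood test), and 4.71 without control replicate 1. An antisense gene, Gm15441, overlaps Txnip, and no source used here says whether construct transcripts were kept apart from endogenous ones. Not all marker lists moved with the labels. The sums of 12 stellate and fibroblast markers overlapped, at 7.71 to 11.4 CPM in controls and 8.32 to 13.2 CPM in the others. Those of 10 endothelial markers were 52.5 to 62.7 CPM and then 32.5 to 40.8 CPM. Those of 10 yolk sac and visceral endoderm markers were 240 to 541 CPM and then 81.2 to 87.8 CPM. None of the erythroid and haematopoietic markers could be tested. Macrophage and leukocyte markers, 18 in all, summed to 72.8 to 93.1 CPM in the controls and 6820 to 7490 CPM in the other group. All 14 tested rose, but several, such as Itgam and Adgre1, had no control read and passed the filter only through the TXNIP libraries. Their direction was thus fixed by the filter, as for any listed gene with reads in a single group. The Kupffer cell genes Clec4f, Marco and Timd4 had no read in any library. Of 20 cholangiocyte and ductular markers, 13 of 14 tested fell and Spp1 rose, with Sox9 at no read under the TXNIP label. The summed level of the 20 was 3250 to 4390 CPM in the controls and 3920 to 5550 CPM in the other group. Spp1 made up nearly all of it in the TXNIP libraries (3920, 5080 and 5550 CPM). Of 18 hepatocyte markers 6 could be tested, and Fga, Fgg, Cps1, Asgr1 and Asgr2 had no read in any library. Alb, Ttr, Apoa1, Apoa2, Apob and Serpina1a are in this list, so it is not separate from the genes examined here. The 18 summed to 43.7 to 102 CPM in the controls and 3.09 to 8.53 CPM in the other group. In control replicate 1 Hnf4a (53.6 CPM) and Serpina1a (32.8 CPM) made up most of the sum. Lyz2, the lysozyme of macrophages, went from 0, 0 and 1 reads to 8678, 19362 and 21282. The epithelial genes Krt18 and Cdh1 went from 5388, 7355 and 6821 reads to 0, 1 and 0, and from 14359, 12711 and 14304 to 0, 3 and 0. The TXNIP libraries thus lacked epithelial markers that the controls of the same named line held, so whether they came from BMOL cells is in doubt. An effect of the construct and a different source of cells cannot be told apart in any fold change given here. In each group replicate 1 stood apart, differing from its fellow replicates by a chi-square, divided by its degrees of freedom, of 23.1 to 28.3, beside 6.40 and 6.51 between replicates 2 and 3. In bulk RNA, fewer cells of a type and less RNA per cell cannot be told apart.

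Of the 7 tested genes, 4 fell in the TXNIP libraries (Rbp4, Serpina1a, Trf and Ttr), 1 rose (Afp) and 2 did not pass (Alb and Apoe). Across all tested genes 64.5% passed, 30.6% higher and 33.9% lower, so 5 calls among 7 genes is a share near the background. The same shares are the background for every list count in this report. The median log2 fold change of the 7 was -2.66, beside -0.04 over all tested genes. The groups of libraries did not overlap for Afp, Rbp4, Trf and Serpina1a, 4 of the 7, against 70.4% of all tested genes. Together the 10 genes held 3879, 4765 and 5347 reads in the controls and 966, 1091 and 1152 in the other group. Rbp4 made up 87.0%, 91.1% and 88.2% of them in the controls. Afp made up 97.0%, 93.5% and 91.4% of them in the TXNIP libraries. The gene that supplied most reads of the set thus differed between the groups.

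**Figure D1:**
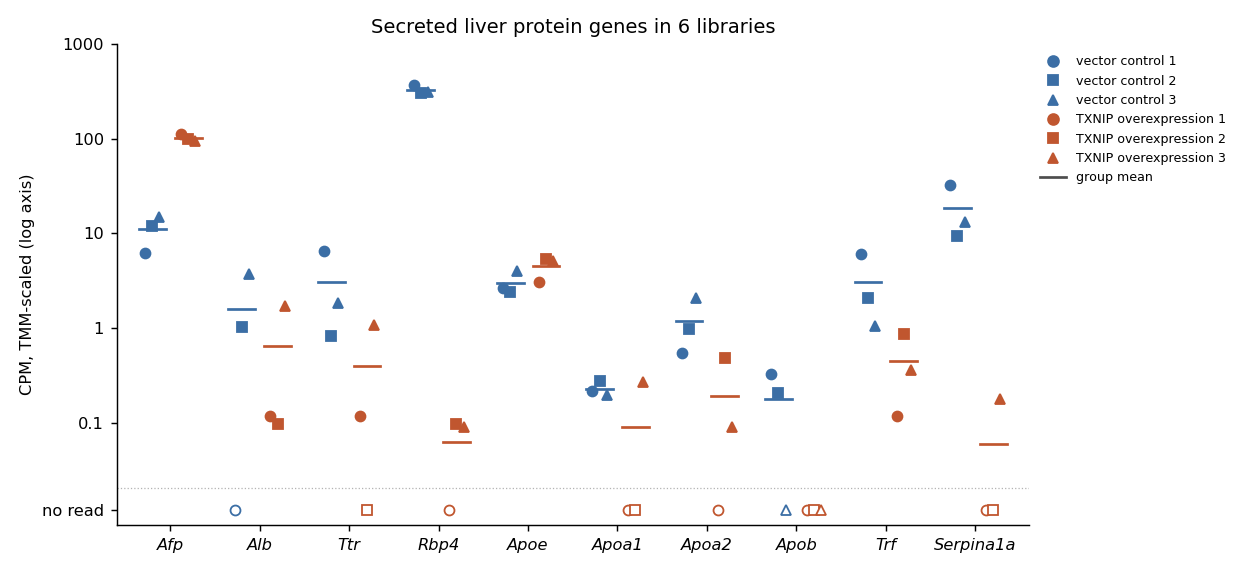
Levels of the 10 genes in each library, as TMM-scaled CPM on a log axis, with vector controls in blue and TXNIP libraries in red-brown. Symbols mark the replicate number, open symbols lie at no read and bars are group means. Rbp4 and Serpina1a drop to or near no read, Afp is the only gene whose red-brown points all lie above all blue ones, and the Apoe points overlap.

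**Figure D2:**
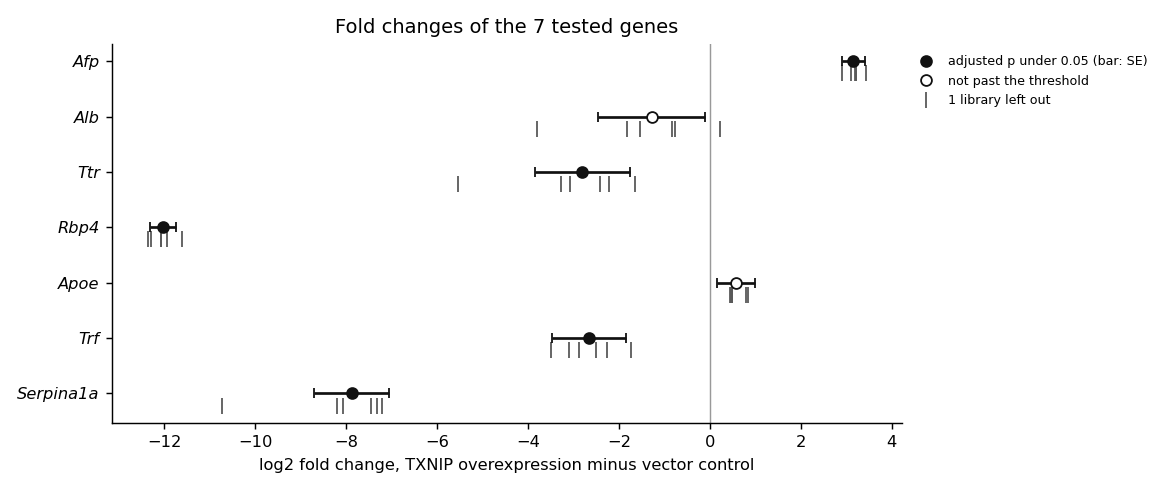
Log2 fold changes of the 7 tested genes (TXNIP overexpression minus vector control) with their SE, filled where the adjusted p is under 0.05. Vertical ticks give the value with 1 library left out, and they run from -3.80 to 0.23 for Alb, from -5.53 to -1.64 for Ttr, from -10.72 to -7.21 for Serpina1a and from -3.50 to -1.74 for Trf, and lie closer together for Afp, Rbp4 and Apoe.

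The 250 bases before the annotated start are shown for 5 of the genes, because liver factors act close to the start of these genes: Afp, the gene that rose, Alb, its neighbour, Rbp4 and Serpina1a, which fell most, and Apoe, which did not pass. They lie on GRCm38.p6 at chr5:90490464-90490713 (plus strand), chr5:90460620-90460869 (plus), chr19:38125322-38125571 (minus), chr12:103863620-103863869 (minus) and chr7:19699189-19699438 (minus), from RefSeq, written 5' to 3' in the direction of the gene. The start used for Apoe lies within the longer annotated gene, so its window does too. Capitals mark matches, on either strand, to TATAAA (the TATA box), CAAAGTCCA (HNF4), TGTTTAC (FOXA) or TTGCGCAA (C/EBP).
Afp: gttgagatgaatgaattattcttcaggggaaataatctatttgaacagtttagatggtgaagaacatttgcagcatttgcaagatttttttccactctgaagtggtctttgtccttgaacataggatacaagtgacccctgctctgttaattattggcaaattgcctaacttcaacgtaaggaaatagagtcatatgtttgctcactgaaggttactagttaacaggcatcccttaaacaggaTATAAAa
Alb: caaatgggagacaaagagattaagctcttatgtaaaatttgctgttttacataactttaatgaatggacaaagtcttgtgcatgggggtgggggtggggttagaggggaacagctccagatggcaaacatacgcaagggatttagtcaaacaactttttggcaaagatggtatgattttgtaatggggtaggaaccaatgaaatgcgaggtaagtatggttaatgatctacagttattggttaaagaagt
Rbp4: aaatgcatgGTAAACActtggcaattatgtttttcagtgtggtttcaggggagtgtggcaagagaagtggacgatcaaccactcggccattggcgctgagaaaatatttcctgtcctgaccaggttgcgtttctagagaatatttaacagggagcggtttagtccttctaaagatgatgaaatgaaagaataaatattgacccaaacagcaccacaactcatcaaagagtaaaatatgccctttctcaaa
Serpina1a: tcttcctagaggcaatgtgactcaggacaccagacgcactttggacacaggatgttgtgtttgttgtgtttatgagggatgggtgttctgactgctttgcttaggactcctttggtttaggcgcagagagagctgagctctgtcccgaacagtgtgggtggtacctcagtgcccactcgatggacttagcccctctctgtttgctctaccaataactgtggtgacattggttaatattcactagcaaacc
Apoe: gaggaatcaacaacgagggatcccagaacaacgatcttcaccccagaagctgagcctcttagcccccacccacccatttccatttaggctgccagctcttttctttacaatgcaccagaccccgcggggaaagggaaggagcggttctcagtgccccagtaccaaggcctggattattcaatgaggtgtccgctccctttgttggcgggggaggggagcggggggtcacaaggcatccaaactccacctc

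Afp held TATAAA 7 to 2 bases before the annotated start. Whether transcription began at that start in these cells was not tested. Rbp4 held TGTTTAC on the opposite strand, 241 to 235 bases before the start. Alb, Serpina1a and Apoe held none of the 4, which says only that these letters are not in those windows. Among 32851 promoter windows of the same length, 12.4% held TATAAA, 3.17% TGTTTAC, 0.384% CAAAGTCCA and 0.164% TTGCGCAA. These are letter matches, not measured binding.

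Afp, the fetal counterpart of albumin, lies at chromosome 5 from 90490714 to 90508907 and has 15 exons in its principal transcript. It had 57, 175 and 230 reads in the controls and 937, 1020 and 1053 in the TXNIP libraries, or 6.27, 12.1 and 15.0 CPM against 111, 98.6 and 95.5 CPM. Every library of the second group stood above every control, and the controls varied more relative to their mean. The mean rose 9.14-fold, with a log2 fold change of 3.16 ± 0.25 (adjusted p = 4.8e-07 in edgeR's quasi-likelihood test). Over 15 alternatives the log2 fold change lay between 2.90 and 3.43 and passed in each. An annotated antisense gene, Gm43449, overlaps Afp. Since the use of strand in counting is not given, reads of the pair cannot be told apart.

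Alb, the albumin gene, lies next to Afp on the same strand, at chromosome 5 from 90460870 to 90476602. It had 0, 15 and 57 reads in the controls and 1, 1 and 19 in the other group. In each group most of the reads lay in replicate 3, and the groups overlapped. The log2 fold change of -1.28 ± 1.18 did not pass (adjusted p = 0.36 in edgeR). It turned to 0.23 (adjusted p = 0.89) without control replicate 3 and was -3.80 (adjusted p = 0.067) without TXNIP replicate 3. Pooled over libraries, albumin had 72 control reads and 21 others, a level of 0.705 CPM in the second group (exact 95% interval 0.437 to 1.08). For a gene that is among the most abundant of adult hepatocytes this is a trace, in either group.

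The genes around the pair moved in different directions. Afm, which encodes afamin of the same albumin family, is the next gene after Afp and had 18, 17 and 8 control reads but 0 in every TXNIP library, at least 11-fold lower, and was not tested. Rassf6 beyond it fell (43.6 ± 8.82 to 2.22 ± 0.441 CPM, mean ± SD, n = 3, as for all levels written this way; edgeR adjusted p = 2.0e-08). The chemokine gene Cxcl5 after that fell from 409 ± 6.21 CPM to no read. On the other side, Ankrd17 did not pass (175 ± 24.7 and 200 ± 45 CPM; edgeR adjusted p = 0.32), and Cox18 beyond it rose from 19.4 ± 2.39 to 46.6 ± 5.96 CPM (edgeR adjusted p = 4.8e-05). Gc, the vitamin D carrier of the same family, fell from 267, 145 and 172 reads to 0, 0 and 1. Of Alb, Afp, Afm and Gc, the albumin family, Afp was the 1 that rose.

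**Figure D3:**
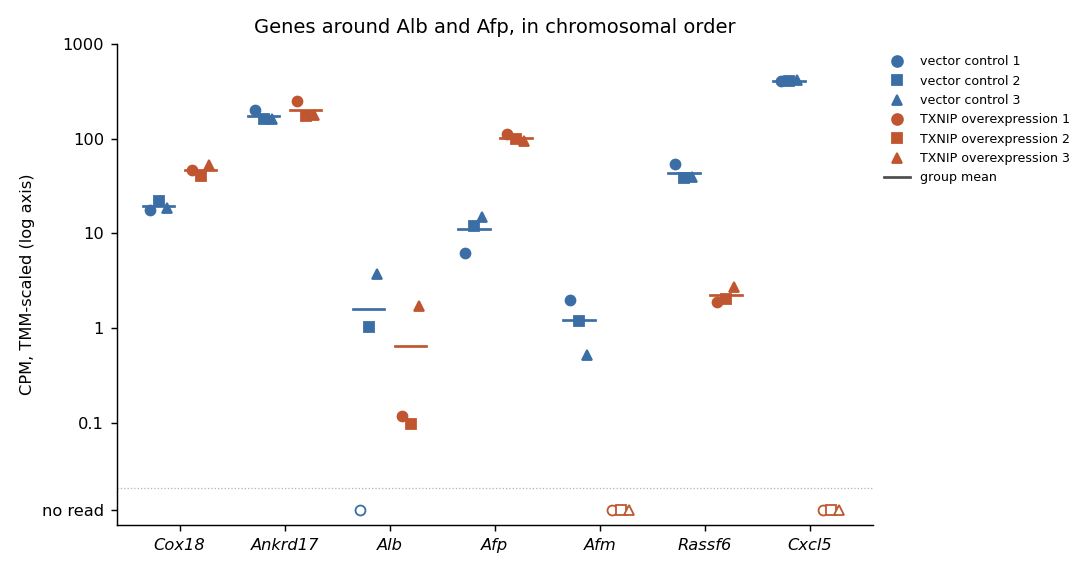
Levels of 7 genes around Alb and Afp in chromosomal order, TMM-scaled CPM on a log axis, symbols as for the 10 genes. Afp has its red-brown points between 95.5 and 111 CPM, above all controls, while Afm and Cxcl5 drop to no read.

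A list of genes that restrain Afp after birth, and of genes related to them, was read beside it. Zhx2, whose product represses Afp in adult mouse liver, fell from 102, 148 and 180 reads to none, a level at least 110-fold lower. Genes annotated as antisense, 9330154K18Rik and Gm16006, overlap it. Zfhx3, which encodes the AT motif-binding factor that represses the AFP promoter, fell from 60.6 ± 9.05 to 0.119 ± 0.206 CPM (edgeR adjusted p = 5.4e-09). Zbtb20, another repressor of Afp, did not pass, with 13 ± 1.93 and 10.6 ± 5.35 CPM (edgeR adjusted p = 0.44). Zhx1, listed as a relative of Zhx2, rose from 12 ± 0.794 to 19.7 ± 4.76 CPM (edgeR adjusted p = 0.017), a call lost without TXNIP replicate 1 (adjusted p = 0.072). Of the 7 genes in this list, 1 rose, 3 fell and 3 did not pass. Whether they have a part in the Afp difference was not tested.

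Other fetal liver and oncofetal genes went both ways. Of 17 listed, 9 were tested, with 4 higher and 5 lower, and Dlk1, Gpc3, H19, Igf2, Lin28b and Sall4 had no read in any library. Hmga2, a chromatin protein gene of fetal tissue, rose from 136 ± 8.02 to 598 ± 62.5 CPM (edgeR adjusted p = 2.2e-08). Igf2bp1, an oncofetal RNA-binding protein gene, fell from 108 ± 3.12 CPM to no read, and the related Igf2bp3 fell from 99.0 ± 12.2 to 34.5 ± 7.52 CPM. Igf2bp2, also related, rose from 112 ± 14.9 to 178 ± 12.8 CPM (edgeR adjusted p = 0.00087). The other listed genes that rose were Aldoa and Pkm. The imprinted gene Peg3 went from 712 ± 87.9 to 0.310 ± 0.455 CPM.

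Rbp4 encodes the retinol carrier of plasma, which leaves the liver bound to transthyretin, the product of Ttr. Rbp4 lies at chromosome 19 from 38116620 to 38125321 on the minus strand. It had 3375, 4341 and 4716 control reads and 0, 1 and 1 reads in the TXNIP libraries. The control levels of 371, 301 and 308 CPM were the highest of the 10 genes and varied little. The pooled level was 4770-fold higher in the controls (exact 95% interval 1320 to 39400), and the log2 fold change of -12.03 ± 0.29 passed (adjusted p = 1.8e-11 in edgeR). The size of that fitted value depends on the prior count. Its neighbour Ffar4, a fatty acid receptor gene, also fell (436, 104 and 129 reads to 1, 0 and 0), while Cep55 and Fra10ac1 within 3 genes of Rbp4 did not pass (log2 fold changes 0.04 and -0.47).

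Ttr carries thyroxine and holds Rbp4 in the circulation. It lies at chromosome 18 from 20664209 to 20674326 and had 60, 12 and 28 control reads and 1, 0 and 12 in the other group. The groups overlapped, since control replicate 2 (0.832 CPM) stood below TXNIP replicate 3 (1.09 CPM). The log2 fold change was -2.80 ± 1.05 (adjusted p = 0.036 in edgeR). With control replicate 1 left out it did not pass (log2 fold change -1.64, adjusted p = 0.19), nor without TXNIP replicate 1 (adjusted p = 0.12) or 2 (adjusted p = 0.096). Without TXNIP replicate 3 it was -5.53 (adjusted p = 0.008).

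In the controls, where Rbp4 stood at 327 ± 38.7 CPM, its plasma partner Ttr stood at 3.09 ± 3.08 CPM. Reads were taken at the 3' end and were not divided by length. The genes of retinoid and thyroid hormone handling mostly fell with the carriers: of 25 listed, 14 were tested, of which 12 fell and 2 rose. Rdh10, the first dehydrogenase of retinoic acid synthesis, fell from 78.7 ± 18.6 to 2.59 ± 1.27 CPM (edgeR adjusted p = 7.3e-08). Aldh1a2, the next enzyme of that path, and Dio3, which inactivates thyroid hormone, fell to no read, at least 107-fold and 124-fold lower. Rxra, a nuclear receptor gene for retinoids, fell from 15.7 ± 2.05 to 0.590 ± 0.260 CPM. Stra6, the cell surface receptor of the retinol carrier, went from 125, 52 and 78 reads to none, at least 65.2-fold lower.

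Serpina1a encodes alpha-1-antitrypsin, the inhibitor of neutrophil elastase in plasma, and is 1 of several near-identical mouse copies. It lies at chromosome 12 from 103853295 to 103863619 on the minus strand. It had 298, 136 and 204 control reads and 0, 0 and 2 in the other group. The groups did not overlap, and control replicate 1, at 32.8 CPM, stood above the 9.43 and 13.3 CPM of the other controls. The pooled level was 245-fold higher in the controls (exact 95% interval 67.4 to 2020). The log2 fold change of -7.88 ± 0.82 passed (adjusted p = 6.6e-06 in edgeR) and was -10.72 without TXNIP replicate 3, the library that held both reads, and -7.21 without control replicate 1.

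The copies shared this pattern. Serpina1b had 538, 317 and 426 control reads and 0, 0 and 1 in the other group, Serpina1d had 531, 272 and 243 and then 0, 0 and 4, and Serpina1c had 220, 62 and 103 and then 0, 0 and 7. All 3 fell in edgeR (adjusted p = 3.5e-07, 1.4e-05 and 0.00054). Without TXNIP replicate 3 their log2 fold changes of -9.67, -7.74 and -5.58 became -11.69, -11.46 and -10.05, and without control replicate 1 the values of Serpina1c and Serpina1d were -4.53 and -6.92. Serpina1e, with 41, 10 and 8 control reads and then 0, 0 and 1, was not tested. In every copy control replicate 1 was the highest library, and the reads of the second group all lay in its replicate 3.

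Reads of the copies can be exchanged in part. Of the 226 windows of 75 bases in the last 300 bases of the principal Serpina1a transcript, 67 (29.6%) also occurred in a transcript of Serpina1b, Serpina1c or the pseudogene Gm8893. The share was 8.41% for Serpina1b and Serpina1d and 1.33% for Serpina1c and Serpina1e. The level of each copy is uncertain for that reason, and Serpina1b and Serpina1d also overlap each other in the annotation. The promoter windows matched too where they aligned, with 92.6% to 95.9% identity of aligned bases between Serpina1a and the other 4. The windows are offset by their annotated starts, so fewer than 250 bases align. That of Serpina1e starts within the Serpina1a window and runs past its end. Among the other 9 genes, Trf shared 3 of 226 windows and 8 shared none. Serpina10, an inhibitor of coagulation in the same cluster, also fell, from 18, 19 and 14 reads to none.

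**Figure D4:**
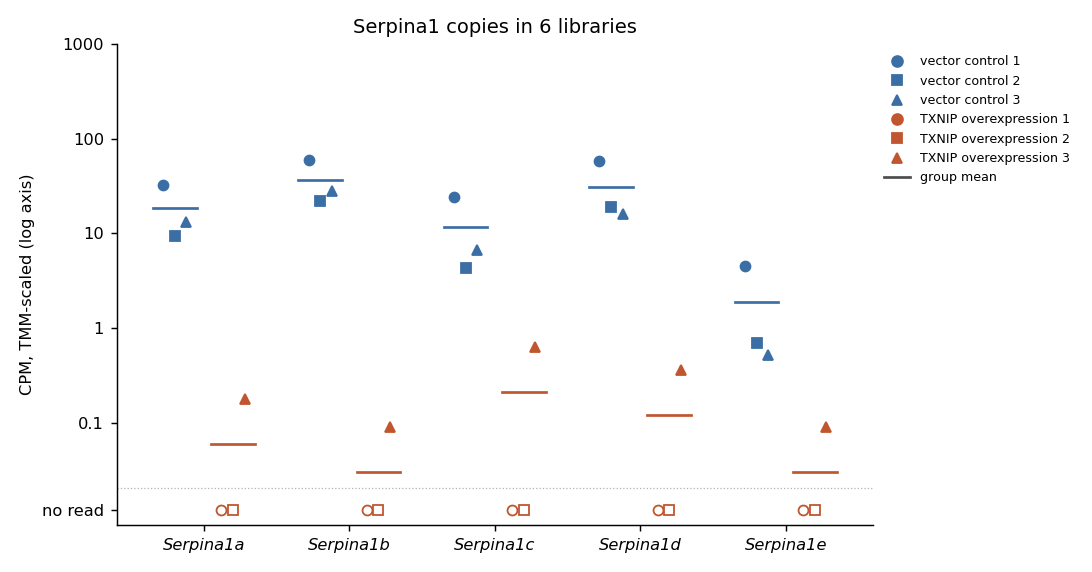
Levels of the 5 Serpina1 copies in each library, TMM-scaled CPM on a log axis, symbols as for the 10 genes. In each copy vector control 1 is the highest point, and the TXNIP libraries 1 and 2 lie at no read.

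Trf encodes transferrin, the iron carrier of plasma, which the liver secretes and cells take up through the receptor encoded by Tfrc. Trf lies at chromosome 9 from 103208876 to 103230286 on the minus strand and had 55, 30 and 16 control reads and 1, 9 and 4 in the other group. The lowest control, replicate 3 at 1.05 CPM, stood just above the highest of the second group, replicate 2 at 0.870 CPM. The log2 fold change was -2.66 ± 0.82 (adjusted p = 0.013 in edgeR). With control replicate 1 left out it did not pass (-1.74, adjusted p = 0.082), nor without TXNIP replicate 1 (adjusted p = 0.052) or 3 (adjusted p = 0.055), and without TXNIP replicate 2 the value was -3.50. Tfrc moved the other way, from 315 ± 39.4 to 565 ± 25.2 CPM (edgeR adjusted p = 8.2e-05). An annotated gene of the same strand, Gm20425, overlaps Trf.

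Apoe, the ligand through which remnant lipoproteins are taken up, lies at chromosome 7 from 19696244 to 19701310 on the minus strand. It had 24, 35 and 61 control reads and 26, 55 and 57 in the other group, or 2.64, 2.43 and 3.98 CPM against 3.09, 5.32 and 5.17 CPM. The groups overlapped, and the log2 fold change of 0.58 ± 0.42 did not pass (adjusted p = 0.24 in edgeR). Over 14 alternatives it lay between 0.44 and 0.84 and passed in none. At 3.02 ± 0.845 and 4.53 ± 1.25 CPM, Apoe was low in both groups. This includes the TXNIP libraries, where the macrophage and leukocyte markers summed to 6820 to 7490 CPM. The apolipoprotein C genes beside it were near the limit of detection. Apoc1 had 6 reads in control replicate 3 and 1 in TXNIP replicate 3, and Apoc2 had 6, 8 and 14 control reads and 9, 7 and 8 in the other group. On the other side Tomm40, a mitochondrial import gene, had 157 ± 26.1 and 200 ± 6.41 CPM and rose (edgeR adjusted p = 0.045).

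The apolipoproteins of the particles that the liver builds were at trace levels. Apoa1, the main protein of high-density lipoprotein (chromosome 9 from 46228630 to 46230469), had 2, 4 and 3 control reads and 0, 0 and 3 in the other group. The pooled ratio of 2.30 in favour of the controls had an exact 95% interval of 0.574 to 13.2, so no difference was detectable at this depth. Apoa2, the second protein of that particle (chromosome 1 from 171221564 to 171226379), had 5, 14 and 32 control reads and 0, 5 and 1 in the other group, a pooled ratio of 6.52 (2.80 to 18.6) for counting error only. The groups did not overlap, with 0.550 CPM in the lowest control and 0.484 CPM in the highest of the others. With no filter its edgeR adjusted p was 0.064 (0.067 in DESeq2). Where leaving out a library let it pass the filter, the edgeR adjusted p was 0.024 without control replicate 1, and 0.1, 0.016 and 0.12 without TXNIP replicates 1, 2 and 3. Apob, the structural protein of very-low-density lipoprotein (chromosome 12 from 7977629 to 8016839), had 3, 3 and 0 control reads and none under the TXNIP label. The groups overlapped, and the pooled levels of 0.155 CPM (exact 95% interval 0.0567 to 0.336) and at most 0.124 CPM (upper bound) could not be told apart at this depth. The gene next to Apoa2, the Fc receptor gamma chain gene Fcer1g, had 1 control read and 618 ± 80.9 CPM in the TXNIP libraries.

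Genes that lipidate, remodel or receive these particles were better measured. Of 13 tested genes of lipoprotein assembly and remodelling, 8 rose, 1 fell and 4 did not pass. Lpl, the lipase that unloads triglyceride, had no control read and 939 ± 75.7 CPM in the other group. Soat1, which esterifies cholesterol, rose from 29.0 ± 2.46 to 300 ± 16.3 CPM (edgeR adjusted p = 5.7e-10). Mttp, the transfer protein that loads lipid onto apolipoprotein B, did not pass, with 1.33 ± 0.431 and 0.932 ± 0.364 CPM (edgeR adjusted p = 0.46).

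The receptors for the 10 proteins split evenly, with 7 higher, 7 lower and 3 not past of 17 tested. Over all tested genes 30.6% rose and 33.9% fell, which is the background for this list and the LXR-linked list below. Lrp1, a receptor for apolipoprotein E, rose from 2.43 ± 0.960 to 94.5 ± 13.7 CPM (edgeR adjusted p = 2.4e-09), and Trem2, a microglial and macrophage receptor that binds apolipoprotein E, had no control read and 178 ± 26.9 CPM. Vldlr fell from 47.9 ± 8.5 CPM to no read. In the list of LXR-linked genes, of which Apoe is a known target, 3 rose, 3 fell and 4 did not pass. Abcg1, an LXR target that exports cholesterol, had no control read and 67.7 ± 13.6 CPM, and Mylip rose from 0.489 ± 0.393 to 8.48 ± 0.384 CPM. Scd2, a desaturase gene of the same list, fell from 1110 ± 254 to 656 ± 35.4 CPM (edgeR adjusted p = 0.0013), and Srebf1 and Lpcat3 did not pass, like Apoe.

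The regulators of secreted liver genes mostly fell. Of 20 hepatocyte transcription factor genes, 14 could be tested: 12 fell, 1 rose and 1 did not pass. Foxa2 went from 2632, 2260 and 2629 reads to 0, 1 and 0, and Foxa1 and Hnf4a fell to no read, at least 242-fold and 326-fold lower. The tested factors that did not fall were both C/EBP genes: Cebpb rose from 72.7 ± 6.01 to 201 ± 50.1 CPM (edgeR adjusted p = 1.4e-05) and Cebpa did not pass (6.09 ± 3.11 and 7.31 ± 1.15 CPM). Creb3l3, too rare for the test, had no control read and 7, 3 and 12 TXNIP reads, and 2 factors rose with no filter and in DESeq2.

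Most other plasma protein genes had too few reads to test. Of 23 further carriers 3 were tested and all fell, namely Gc, ceruloplasmin (Cp, 152 ± 46.3 to 1.29 ± 0.766 CPM) and Igfbp4 (409 ± 51.6 to 35.7 ± 3.93 CPM). Of 18 other genes listed with the apolipoproteins 3 were tested. Clusterin (Clu) fell from 2530, 2276 and 2510 reads to 2, 6 and 9. The serum amyloid gene Saa3 rose from 0.181 ± 0.174 to 12 ± 0.882 CPM. Apool, listed for its symbol and not a plasma protein gene, did not pass. Saa3 is made by macrophages as well as hepatocytes. Of 20 coagulation genes 5 were tested, with 3 lower, 1 higher and 1 not past. Fgb (fibrinogen) and Proc (protein C) fell to no read, at least 32.2-fold and 29.4-fold lower. F9, the gene of coagulation factor IX, went the other way, with no control read and 171, 172 and 220 TXNIP reads, at least 245-fold higher.

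Most hepatocyte enzymes could not be tested for want of reads. Of 30 listed, 12 had no read in any library and 3 were tested. Fah fell from 18.4 ± 5.61 to 2.17 ± 0.844 CPM, while Hal and Aldh1b1 rose from 0.0693 ± 0.120 to 4.08 ± 1.63 CPM and from 0.277 ± 0.241 to 2.20 ± 0.687 CPM. The common export machinery was expressed in both groups. All 36 genes of translocation and export from the endoplasmic reticulum were tested, of which 18 rose, 4 fell and 14 did not pass. The share called was near the 64.5% over all tested genes, of which 30.6% were higher and 33.9% lower. Tmed10 and Lman1, which carry cargo out of the reticulum, rose from 128 ± 8.52 to 318 ± 23.4 CPM and from 142 ± 3.47 to 274 ± 22.2 CPM. Among the 4 that fell was Mia2, which serves the export of large liver cargo (80, 19 and 58 reads to 1, 0 and 0). Ctage5, a related entry of the same list with more reads, rose from 107 ± 7.45 to 244 ± 58 CPM (edgeR adjusted p = 4.0e-05). Mia3 did not pass.

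**Figure D5:**
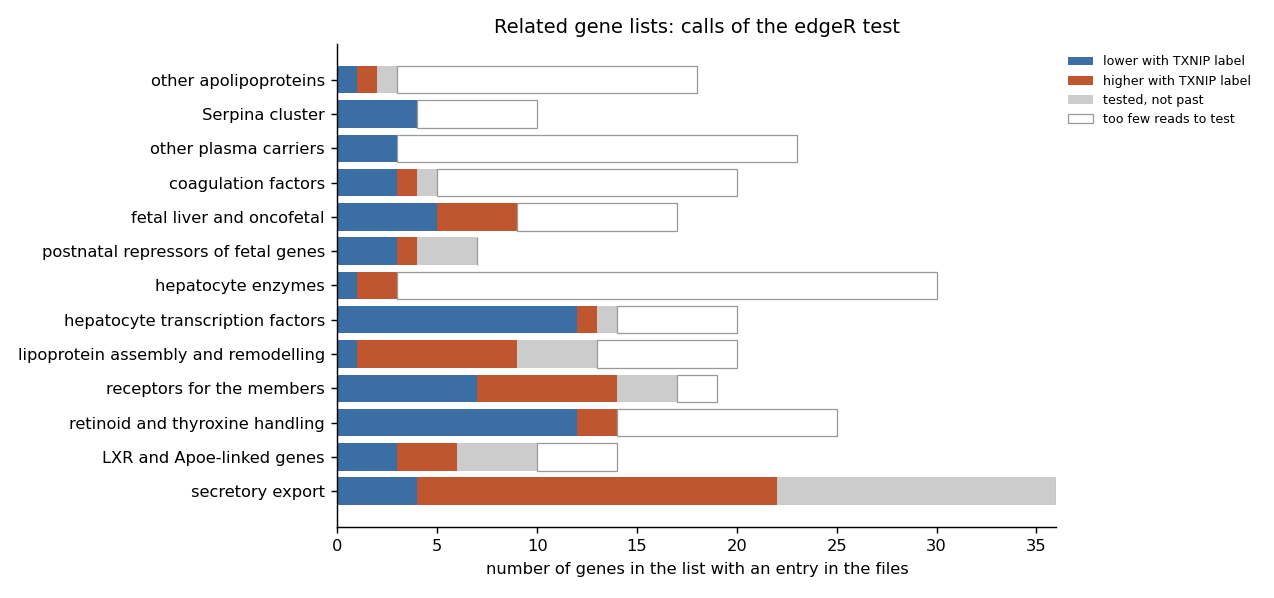
Number of genes per related list that were lower, higher or not past in the edgeR test, or had too few reads, out of those with an entry in the files. Among 20 hepatocyte transcription factors and 25 retinoid genes 12 each were lower, and of 36 secretory export genes 18 were higher and 14 not past.

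Reads of rare liver genes were uneven among libraries of a group. Of 79 listed liver genes that were not tested and are none of the 10, 18, 20 and 24 had a read in the controls and 13, 12 and 21 in the other group. Their summed reads were 139, 128 and 197 and then 36, 55 and 120, or 15.3, 8.87 and 12.9 CPM and then 4.28, 5.32 and 10.9 CPM. At this scale control replicate 1 and TXNIP replicate 3 were the highest of their groups. Ahsg, a fetal plasma glycoprotein gene, had 7 reads in control replicate 3 and 10 in TXNIP replicate 3, with 1 read in the other 4 libraries. Apoc3 had 5 and 7 reads in the same libraries and none elsewhere. Those libraries also held most reads of Alb in each group, and TXNIP replicate 3 held 12 of 13 reads of Ttr, both of Serpina1a and all 3 of Apoa1 in its group. The source of these reads was not tested.

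Genes with the closest profile were sought for each of the 7 tested genes, as the smallest root mean square difference of centred log2 CPM over the 6 libraries. For Afp they were Adamts10, the pseudogene Hmga2-ps1 and 1700001L05Rik (0.16, 0.23 and 0.25), all higher in each TXNIP library. For Rbp4 they were Cxcl1, Tspan8 and Sox11 (0.23, 0.26 and 0.27), and for Serpina1a they were Gc, Proser2 and Cpm (0.17, 0.28 and 0.29). Gc is itself a liver carrier and, like the Serpina1 copies, was highest in control replicate 1. For Apoe they were Ccp110, Fam136a and 2310035C23Rik (0.07, 0.08 and 0.13), for Ttr Per3, Elmo3 and Rap1gap (0.46, 0.50 and 0.57) and for Trf Fbxo32, Slc7a4 and Ccpg1os (0.41, 0.41 and 0.44). Alb had no near profile, with Adgrv1 closest at 0.80, followed by BC020402 (0.85) and Sec16b (0.94). With 64.5% of genes called between the same groups, likeness over 6 libraries describes shape only.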

How the data were processed

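The authors deposited raw read counts per gene symbol, 1 file for each of 6 libraries, with 23282 entries. Bowtie2, bedtools and the mouse build mm10 were used, per the submitters' processing notes. Not given in the sources used here: versions, settings, annotation, strandedness and treatment of duplicates.

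Counts were filtered (filterByExpr), scaled by TMM and put through the quasi-likelihood test of edgeR (edgeR 4.0.16, R 4.3.3, group as the only term, two-sided). P-values were adjusted by Benjamini-Hochberg over 12088 genes, with a threshold of 0.05. The SE is the log2 fold change divided by the square root of F. CPM are reads per 1000000 reads of the TMM-scaled library. Intervals are exact at 95% (scipy 1.17.1) and, like the floor of 3 reads over a group behind each "at least", cover counting error only. The test was checked on simulated counts in which few genes changed and replicates were alike. That check does not cover data in which 64.5% of genes are called and replicate 1 stands apart.

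The genes and lists were chosen with earlier results of these data known. The rule for naming took the 10 genes, their Serpina1 copies, Txnip, up to 4 tested genes per list by adjusted p, and the 3 genes of closest profile (prior count 2). Neighbours, and examples outside that rule, were chosen after their values were seen. Alternatives were RLE factors, library size alone, no filter, 5 CPM in 3 libraries, a replicate block, limma-voom (limma 3.58.1), DESeq2 1.42.0, each library left out, removal of Rn45s and thinning to the smallest total. Positions and promoters are from RefSeq on GRCm38.p6, with promoters for 8 of the 10 genes. Overlaps and transcript ends are from GENCODE. Some genes of the lists are not reported here by name.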

Additional observations from a re-analysis of the deposited data

How the results depend on the processing

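Over 15 alternatives the 7 tested genes gave 99 values, of which 92 kept their direction and side of the threshold. Ttr and Trf accounted for the 6 that no longer passed, each with a library left out. Alb turned to 0.23 without control replicate 3, and its values with 1 library left out ranged from -3.80 to 0.23. The count that rose was 1 in every setting. The count that fell was 4, and 2 under the filter of 5 CPM in 3 libraries, which left 3 genes to test, and 3 with counts thinned to the smallest total, which left 5. With 1 library left out it ranged from 2 to 4, the lowest without TXNIP replicate 1. The genes counted were not always the same. Without control replicate 1 or TXNIP replicate 2 the count included Apoa2, which then passed the filter, and not Ttr. Without control replicate 1 it did not include Trf either. Over the related lists 46 genes rose and 59 fell, against 43 to 49 and 42 to 69 in the alternatives. Small list counts moved more: the plasma carriers that fell were 6 with no filter, the transcription factors that fell were 7 under the filter of 5 CPM, and the LXR-linked genes that rose were 5 without control replicate 2. Of 727 values of 49 other named genes, Zhx1 gave the 1 that lost its call. Deviations of same-numbered libraries correlated at 0.067, 0.021 and 0.035 over genes, and not every library correlated best with its own number, so the numbers were not taken as pairs, although replicate 1 stood apart in both groups. Under the replicate block 1 gene rose and 4 fell, as without it. Depth limits Apoa1, Apoa2 and Apob. Alb, Ttr and Trf rest on few reads, a large part of which 1 library of a group can carry.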
